A study of Mus musculus with 30 samples.

Results

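AP-1 is a family of DNA-binding dimers made of Jun and Fos proteins. cJun and JunB can pair with each other, with themselves or with a Fos protein, whereas FOSL2 (also called Fra-2), a Fos protein, needs a Jun partner such as cJun, JunB or JunD to bind the AP-1 site. Early in fat-cell differentiation AP-1 is known to occupy many enhancers together with other factors. Here the opposite class was described: genomic regions where cJun, JunB or FOSL2 was listed by itself, with none of the other profiled factors. Such a listing does not show that the subunit bound without a partner, since JunD, other Fos proteins and weaker binding below the peak threshold were not measured in the lists used here.

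The regions were 3047 of 34724 intervals on chromosomes 1 to 19 and X. They were selected on listing alone: an interval had to occur, with identical coordinates, in exactly 1 of 9 deposited peak lists, and that list had to be cJun, JunB or FOSL2. The rule gave 367 regions with cJun alone, 1398 with JunB alone and 1282 with FOSL2 alone. For comparison, 12001 intervals were listed for ATF2, ATF7, KLF4, KLF5, VDR or RXR alone, and 15048 intervals, 43.3% of the common set, were listed for a single factor of any kind. All lists came from chromatin immunoprecipitation with sequencing (ChIP-seq) in 3T3-L1 cells, a mouse embryonic fibroblast line committed to the fat-cell lineage. All 9 groups shared 1 treatment: post-confluent cells were induced with 1 μM dexamethasone, 0.5 mM isobutylmethylxanthine, 1 μg/ml insulin and 10% fetal calf serum and were harvested 4 h later. Each factor had 1 library, and no uninduced or untreated list was used here. The identity of the cells could not be checked from peak positions. Of 30 labelled samples, 21 were not analysed here.

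Each list gave positions in the mm9 build and no height, score or read count, so the depth of the libraries is unknown. Every interval was 400 bp long. The length of a list reflects the antibody and the sequencing depth as well as the binding. Regions of 1 list share 1 library and are not replicates. Intervals in brackets are 95% limits, exact Clopper-Pearson for shares and exact order-statistic for medians. They treat regions as independent and cover counting error only. With 1 library per factor, no test between factors was possible. The agreement of an order across 20 chromosomes is given instead, as a description within the same libraries.

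The 3 subunits differed in the share of their sites listed for no other profiled factor, in the values that chose the regions. FOSL2 was listed alone at 20.4% (19.4 to 21.4) of its 6284 sites, JunB at 13.9% (13.2 to 14.6) of 10082 and cJun at 5.94% (5.37 to 6.56) of 6175. FOSL2 was above cJun on 20 of 20 chromosomes and above JunB on 19, and cJun was below JunB on 20. Averaged over chromosomes, the share was 21.3% ± 7.24 for FOSL2, 14.2% ± 2.47 for JunB and 6.12% ± 2.02 for cJun (SD over 20 chromosomes). Among the other factors it lay between 5.07% for KLF4 and 28.1% for ATF2, so AP-1 subunits stood neither lowest nor highest. The cJun value rests on the JunB list more than on any other: without that list, 13.0% of cJun sites had no other factor.

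The subunits also differed in how often they were listed without each other. Of the cJun sites, 1142 (18.5%) lacked both JunB and FOSL2, and 32.1% of those lacked the 6 other factors too. JunB was without another AP-1 subunit at 3798 sites (37.7%), of which 36.8% were alone. FOSL2 was without cJun and JunB at 2919 sites (46.5%), of which 43.9% were alone. The remainder of these sites, each without the 2 other profiled AP-1 subunits, carried an ATF, a KLF or a nuclear receptor.

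Just outside the rule stood sites with a single companion, and the companion differed by subunit. cJun had 656 such sites, and JunB was the companion at 66.3% of them, followed by the receptors VDR and RXR at 9.76% each. JunB had 1463, shared with cJun at 29.7%, with the zinc-finger factor KLF5 at 19.5%, with FOSL2 at 17.2% and with RXR at 12.9%. FOSL2 had 774, shared with JunB at 32.4%, with the cyclic AMP-related factors ATF2 at 29.1% and ATF7 at 15.1%, and with KLF5 at 15.4%. cJun was the companion at 2.71% of these FOSL2 sites. The length of each list influences how often it can supply the companion, and cJun had a shorter list than JunB, ATF2 and KLF5.

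Some regions with FOSL2 alone lay close to one another, but most had no second one within 10 kb. The median distance to the nearest region of the same kind was 179 kb for FOSL2, 353 kb for JunB and 1729 kb for cJun. In the other 6 lists it ranged from 77.8 kb for KLF5 to 1712 kb for KLF4. A second region of the same kind lay within 10 kb, measured between midpoints, at 342 FOSL2-alone regions or 26.7% (24.3 to 29.2). The same held for 48 JunB-alone regions or 3.43% (2.54 to 4.53) and for 4 cJun-alone regions or 1.09% (0.298 to 2.77). The JunB set was larger than the FOSL2 set, so the number of regions does not order these shares. FOSL2 was above JunB on 18 of 20 chromosomes, with 1 lower and 1 equal. The FOSL2 mean over chromosomes was 23.0% ± 16.7 and the JunB mean 2.98% ± 2.38 (SD over 20 chromosomes), with FOSL2 values between 0 and 65.0%. The lone regions of the other 6 factors ranged from 5.003% for VDR to 15.5% for KLF5. Without chromosome 10, FOSL2 had 21.3%. The cJun value rests on few regions and stood at 1.75% without the JunB list and 1.86% without the RXR list.

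Shared sites gave another scale, although they were more numerous. There were 1282 lone regions and 5002 shared sites for FOSL2, 1398 and 8684 for JunB, and 367 and 5808 for cJun. A larger set by itself places more members within 10 kb of each other. The 26.7% of FOSL2-alone regions stood beside 25.3% of the sites that FOSL2 shared with any other factor, counted as having a second shared FOSL2 site within 10 kb. For JunB the lone regions stood at 3.43% and the shared sites at 29.8%. For cJun the lone regions stood at 1.09% and the shared sites at 23.3%. A second region of the same kind overlapped 42 FOSL2-alone regions (3.28%), 0 JunB-alone regions and 0 cJun-alone regions. In the other 6 lists this share ranged from 0.122% for VDR to 3.69% for KLF4, so FOSL2 was not the highest. An interval of any kind overlapped 92 FOSL2-alone (7.18%), 38 JunB-alone (2.72%) and 11 cJun-alone regions (3.00%). The share was 5.35% of all single-factor regions. In the other 6 lists it ranged from 3.36% for VDR to 7.38% for KLF4, so FOSL2 lay within that range and JunB and cJun below it.

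**Figure D1:**
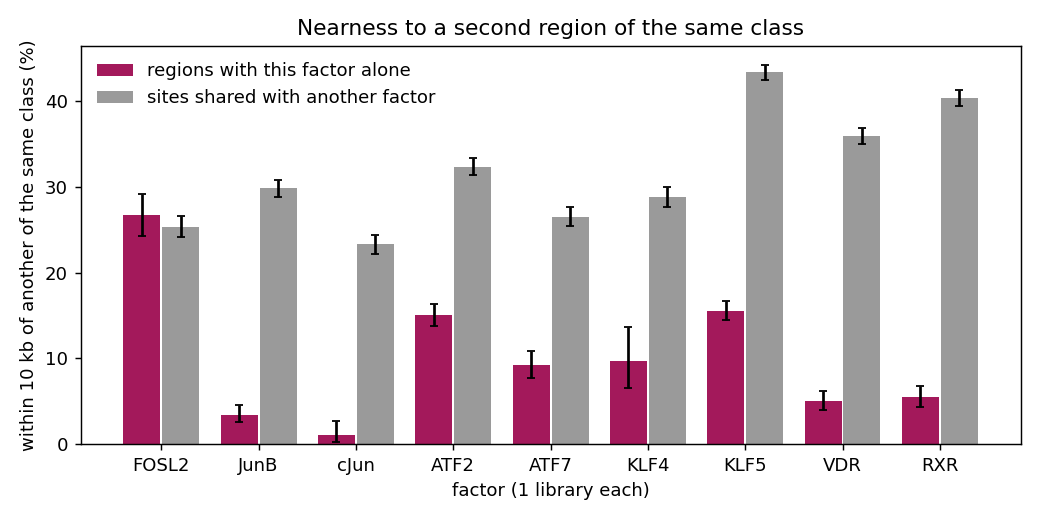
Share of regions (%) with a second region of the same class within 10 kb, for each of 9 factors with 1 library each; red bars are regions with that factor alone, grey bars sites shared with another factor, and error bars are exact 95% limits for counting error. FOSL2 has a red bar of 26.7% beside a grey bar of 25.3%, whereas the red bars of JunB and cJun stand at 3.43% and 1.09%.

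FOSL2-alone regions formed stretches, defined as 3 or more such regions with neighbours at most 10 kb apart. There were 54 stretches with 214 regions, 16.7% of all FOSL2-alone regions, on 17 of 20 chromosomes. JunB and cJun had 0 stretches. The 6 other factors had between 2 (VDR) and 30 (KLF5, with 95 of 4103 regions), and ATF2 had 27 with 96 of 3249 regions, the longest of 9 regions. In these 6 lists stretches held 0.366% (VDR) to 3.02% (KLF4) of the lone regions. The stretches spanned 1.07 to 19.2 kb, with a median of 5.92 kb and a median spacing of 1.26 kb between neighbours. No interval of any other kind lay inside 36 of the 54. Hotspots, meaning intervals listed for 5 or more of the 9 factors, lay within 10 kb of 7 of the stretches.

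The longest stretch held 8 FOSL2-alone regions in 5.17 kb at chr18:78016145-78021312. No other interval lay inside it, and the nearest hotspot was 659 kb away. A stretch of 7 at chr10:127520891-127526298 was likewise uninterrupted, with the nearest hotspot 477 kb away. A second stretch of 7, at chr10:117742568-117758059, held 5 further intervals, all of which listed ATF7, with or without ATF2, and 1 of which also listed FOSL2. On chromosome 5, stretches of 6 at chr5:17288193-17304275 and chr5:17318665-17335518 followed each other closely. Which genes lie at these positions was not analysed here. By contrast, the longest run of neighbouring intervals that all held JunB alone was 3 regions, spread over 719 kb at chr1:139467759-140187028. For cJun it was 2 regions over 48.8 kb at chr5:48357076-48405837.

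**Figure D2:**
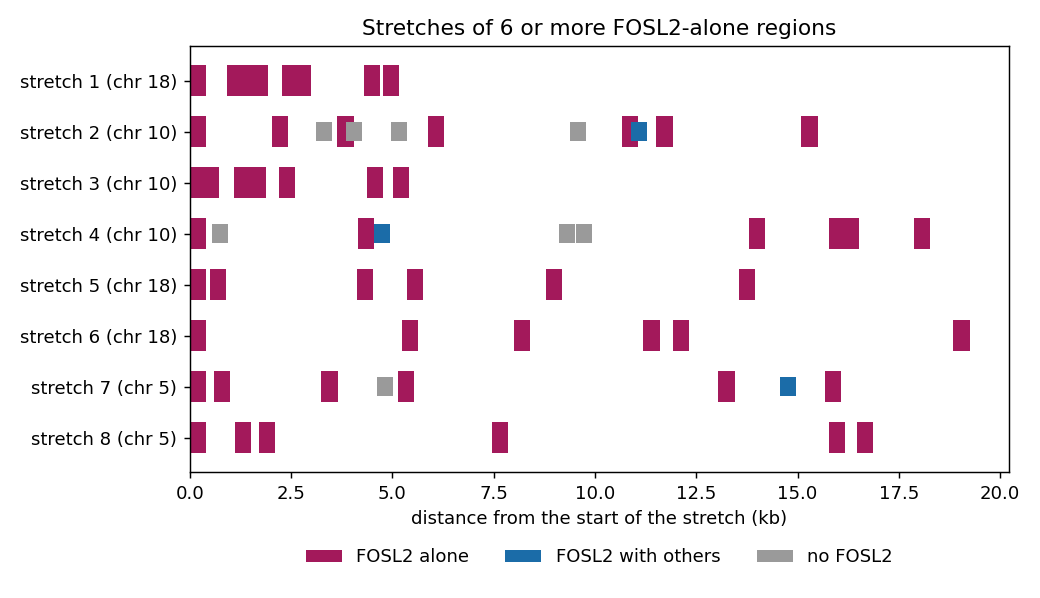
The 8 stretches with 6 or more FOSL2-alone regions, drawn to scale as distance from the start of each stretch in kb; red blocks are FOSL2-alone intervals, blue blocks intervals with FOSL2 and other factors, and grey blocks intervals without FOSL2. Stretch 1 on chromosome 18 packs 8 regions into 5.17 kb with no other interval inside, and stretch 2 on chromosome 10 is interspersed with 5 other intervals.

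The order of rows gave a further description. The lists were not sorted by position, and intervals shared by 2 lists stood in the same order in 36 of 36 pairs of lists. No label or header says what the order stands for. Early rows held sites with many factors. In the FOSL2 list the mean number of factors was 7.01 in the first 5% of rows and 1.40 in the last 5%.

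Lone regions gathered late in all 3 lists, as they did in the 6 others. There the median lone region stood between 76.8% (ATF2) and 91.5% (KLF4) of the way down. The median cJun-alone region stood 93.4% of the way down its list, the median JunB-alone region 85.5% and the median FOSL2-alone region 75.9%. Sites that each shared with other factors had medians of 47.1%, 44.4% and 43.7% in the same lists. The last 10% of rows held 62.4% (57.2 to 67.4) of cJun-alone, 37.8% (35.3 to 40.4) of JunB-alone and 28.4% (25.9 to 30.9) of FOSL2-alone regions. Counted over those rows, the order was reversed. Lone regions filled 37.1% of the last 10% of rows for cJun, 52.4% for JunB and 57.9% for FOSL2. A larger lone set has less room at the end of its list, which bounds the shares of the kind and the medians. In the first 50% of rows stood 8, 171 and 268 regions of cJun, JunB and FOSL2. The first FOSL2-alone region was row 4 of its list, at chr10:95540103-95540502, while the first JunB-alone region was row 225 and the first cJun-alone region row 137. In the other 6 lists the first lone region stood between row 1 (ATF7) and row 48 (RXR). These first rows were picked out after their values were seen.

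FOSL2-alone rows also came in bands. In bins of 5% of rows their share stood at 15.3%, 3.18%, 23.6% and 5.71% in the 4 bins between 30% and 50% of the list. It was 42.2% between 70% and 75% of the list, 18.2% in the next bin and 73.3% in the last bin. The share fell at 6 of 19 steps between bins, by up to 24.1 points. JunB-alone and cJun-alone shares fell at 2 of 19 steps each, by up to 2.98 and 0.325 points. Similar bands were present in the ATF7 list, with 5 falls of up to 23.0 points, and in the ATF2 list, with 6 of up to 17.2 points. KLF5 had 6 falls and KLF4 8, by up to 3.86 and 1.72 points. The longest run of consecutive FOSL2-alone rows was 57, rows 4388 to 4444, and the run drew on 19 chromosomes with 13 regions on chromosome 10. The longest runs were 14 rows for JunB and 10 for cJun. Runs of 5 or more held 45.8% of FOSL2-alone, 14.3% of JunB-alone and 18.0% of cJun-alone regions. In the other 6 lists they held from 6.38% (KLF4) to 38.9% (ATF2), with ATF7 at 36.3% and KLF5 at 30.7%. A larger share of lone rows by itself gives longer runs, and it was 20.4% for FOSL2, 13.9% for JunB and 5.94% for cJun. Long runs were also present in the ATF2 list (66 rows), the ATF7 list (45) and the KLF5 list (36).

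FOSL2-alone regions near another of their kind stood earlier in the list than the others. The 342 regions within 10 kb of another had a median row position of 61.7%, against 80.7% for the 940 without one. Their median distance to a hotspot was 49.9 kb, against 97.0 kb for the others, although similar shares, 11.7% and 10.9%, had a hotspot within 10 kb. Chromosome 10 held 12.2% of all FOSL2-alone regions but 5.85% of the 940, and the comparison was not repeated without it. Leaving that chromosome out moved the median of all FOSL2-alone regions from 85.6 to 97.1 kb.

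**Figure D3:**
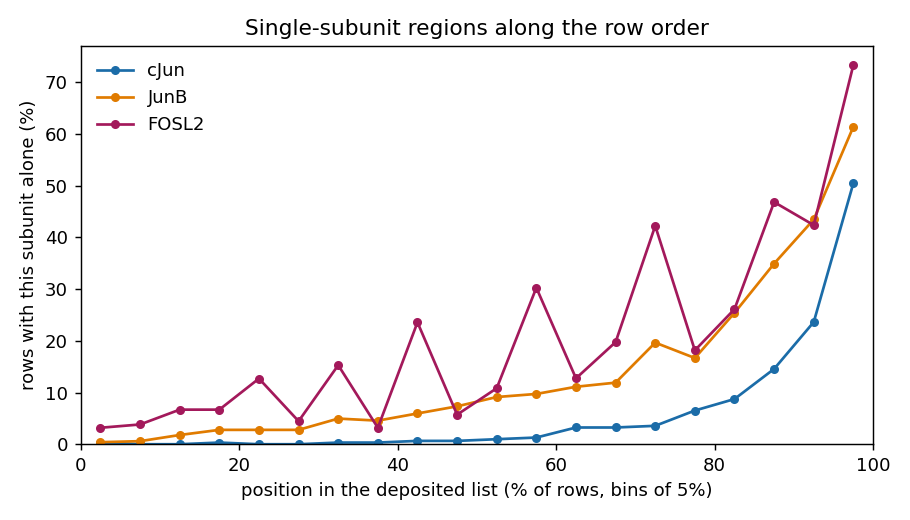
Share of rows (%) that hold the subunit alone, in 20 bins of 5% along each deposited list, for cJun, JunB and FOSL2. The cJun and JunB lines climb with few falls, whereas the FOSL2 line alternates between high and low bins, such as 42.2% and 18.2%, on its way to 73.3%.

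Distance to hotspots was the next comparison. Lone AP-1 regions lay within 10 kb of a hotspot in 373 cases, 12.2% (11.1 to 13.5), against 17.4% (16.7 to 18.1) of the regions with 1 of the other 6 factors alone. Among all single-factor regions the share was 16.3%. By subunit it was 16.1% (12.5 to 20.2) for cJun, 12.3% (10.6 to 14.1) for JunB and 11.1% (9.41 to 12.9) for FOSL2. The other factors ranged from 14.6% for ATF7 to 20.7% for RXR, so that cJun lay within their range and JunB and FOSL2 below it. That placement depended on the distance. At 5 kb all 3 subunits lay below the other factors, which ranged from 9.15% for ATF7 to 13.2% for RXR. At 50 kb all 3 lay within their range of 35.2% for KLF4 to 47.2% for RXR, with JunB at 37.1% and FOSL2 at 39.7%. Intervals with 2 or 3 AP-1 subunits and no other factor, 814 in number, stood at 12.5% for 10 kb.

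The order of the 3 subunits at 10 kb did not hold on every chromosome. cJun was above JunB on 13 of 20 chromosomes, FOSL2 was below JunB on 13, and FOSL2 was below cJun on 13 with 1 equal. The chromosome means were 15.5% ± 9.59 for cJun, 11.7% ± 4.89 for JunB and 10.4% ± 7.25 for FOSL2 (SD over 20 chromosomes). Each difference between subunits was smaller than the SD over chromosomes of either. Without a second library, they cannot be set against a replicate error.

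Most lone regions were far from hotspots. The median distance was 65.2 kb (55.4 to 93.0) for cJun, 82.7 kb (75.8 to 93.0) for JunB and 85.6 kb (74.7 to 96.9) for FOSL2, against 68.9 kb (65.8 to 71.7) for the other 6 factors alone. Taken singly, those 6 ranged from 57.3 kb for RXR to 93.5 kb for KLF4, and the 3 AP-1 medians lay within that range. The limits for cJun reach those of JunB and FOSL2. Requiring 6 factors for a hotspot gave 130.5, 133 and 130.3 kb for cJun, JunB and FOSL2, where the cJun median was no longer the lowest. Leaving out a list removes hotspots, and the cJun median stood at 104 kb without JunB, 116 kb without KLF5, 112 kb without VDR and 113 kb without RXR.

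The first regions in coordinate order and the extremes show the range. The first FOSL2-alone region, chr1:11204132-11204531, was 77.4 kb from a hotspot, the first JunB-alone region, chr1:9567920-9568319, was 1.56 Mb and the first cJun-alone region, chr1:14460454-14460853, was 18.7 kb from one. The FOSL2-alone region nearest to a hotspot, chr5:15550917-15551316, had its midpoint 311 bp from an interval with cJun, JunB, KLF4, KLF5, VDR and RXR. The nearest cJun-alone region, chr3:65884910-65885309, lay 437 bp from an interval with the same 6 factors, and the nearest JunB-alone region, chr2:44007693-44008092, 292 bp from another one. At the other end, the farthest regions of all 3 kinds were on the X chromosome. The farthest JunB-alone region, chrX:87693477-87693876, was 10.2 Mb from a hotspot. The farthest cJun-alone region, chrX:82804195-82804594, and the farthest FOSL2-alone region, chrX:82948382-82948781, were 8.02 and 8.17 Mb from one. They were each other's nearest interval, 144 kb apart.

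**Figure D4:**
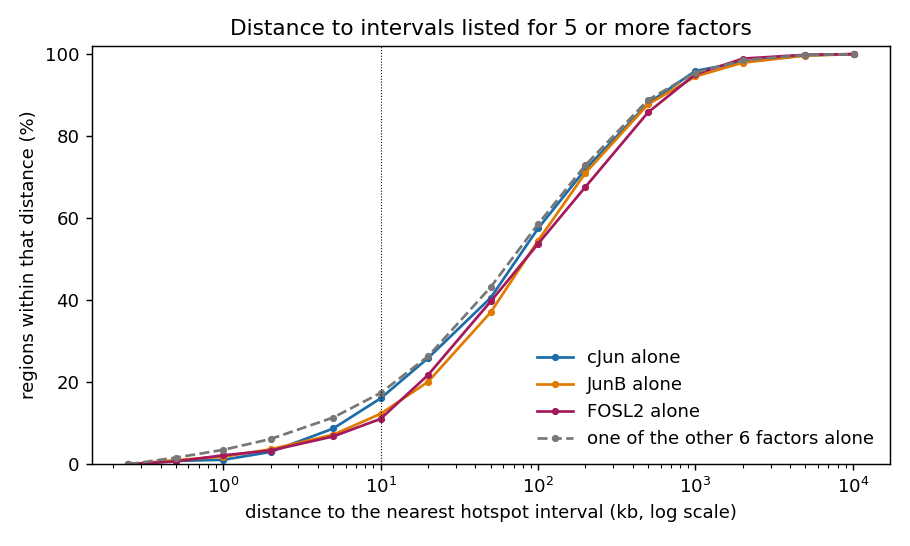
Cumulative share of regions (%) against distance to the nearest hotspot interval in kb on a log scale, for cJun, JunB and FOSL2 alone and, dashed, for 1 of the other 6 factors alone; the dotted line marks 10 kb. At 10 kb the lines of JunB (12.3%) and FOSL2 (11.1%) run below that of the other factors (17.4%), and cJun (16.1%) lies between.

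The distance to other AP-1 subunits was also measured. A site of another subunit, shared or not, lay within 10 kb of 26.98% (22.5 to 31.8) of cJun-alone, 19.7% (17.7 to 21.9) of JunB-alone and 22.2% (19.9 to 24.5) of FOSL2-alone regions. The target sets were of different size, with 13089 intervals for cJun, 10433 for JunB and 11312 for FOSL2. cJun was above JunB on 15 of 20 chromosomes and FOSL2 was above JunB on 9. Against 1 target set for all, the 6372 intervals with 2 or 3 AP-1 subunits, the shares were 16.9% (13.2 to 21.1), 14.2% (12.4 to 16.1) and 15.4% (13.4 to 17.5) for cJun, JunB and FOSL2, and their limits overlapped. Median distances to that set were 57.7, 69.1 and 65.7 kb. These values depend on single AP-1 lists, since leaving one out also shrinks the target sets. Without the JunB list, the share near another subunit was 11.2% for cJun and 12.2% for FOSL2, and without the cJun list it was 10.6% for JunB. The share near several subunits was then 6.36%, 4.76% and 6.87%.

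Few lone regions of different subunits lay within 10 kb of each other, but the target sets were small. JunB-alone regions made up 4.03% and cJun-alone regions 1.06% of all common intervals. Those values give the size of the target sets only and are not the share to be met within 10 kb. Within their own kind the shares within 10 kb were 3.43% for JunB and 1.09% for cJun. A JunB-alone region lay within 10 kb of 11 cJun-alone regions (3.00%) and of 26 FOSL2-alone regions (2.03%), and a cJun-alone region within 10 kb of 12 FOSL2-alone regions (0.936%). The closest FOSL2-alone and JunB-alone pair had midpoints 213 bp apart, and the closest cJun-alone and JunB-alone pair 282 bp. Between FOSL2-alone and cJun-alone regions the smallest distance was 1242 bp.

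The nearest other interval of any kind was 4.59 kb (3.98 to 5.28) away at the median FOSL2-alone region, 11.1 kb (9.90 to 12.4) at the median JunB-alone region and 11.1 kb (9.35 to 13.1) at the median cJun-alone region. For the other 6 factors alone it was 6.61 kb (6.35 to 6.89). No interval lay within 50 kb of 11.4% of FOSL2-alone, 16.5% of JunB-alone and 15.3% of cJun-alone regions, against 11.0% of the lone regions of other factors.

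The factors at that nearest interval differed between subunits. Next to cJun-alone regions it listed JunB or FOSL2 in 41.4% (36.3 to 46.6) of cases, whereas 37.7% of all common intervals list either. Next to JunB-alone regions it listed cJun or FOSL2 in 26.8% (24.4 to 29.2), against 30.0% of all intervals. Next to FOSL2-alone regions it listed cJun or JunB in 20.9% (18.7 to 23.2), against 32.6%. Leaving out another AP-1 list lowers both values. Without the JunB list the share was 14.8% (12.4 to 17.5) for cJun, against 18.9% of the remaining intervals, so that cJun then stood below its background and no longer above it. Without the JunB list FOSL2 had 11.1%, against 18.5%, and without the cJun list JunB had 13.9%, against 18.3%. The neighbour was itself a region of the same kind at 22.0% of FOSL2-alone, 6.72% of JunB-alone and 1.36% of cJun-alone regions. By the rule such neighbours list no other subunit. They therefore lower the shares above by construction, most of all for FOSL2.

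By single factor, the neighbour of a FOSL2-alone region listed FOSL2 in 36.8% of cases, against 18.1% of all common intervals. It listed the nuclear receptors VDR in 17.9% and RXR in 19.1%, against 34.0% and 34.8% of all intervals, and KLF5 in 32.0%, against 49.3%. ATF2 was listed at 33.0% of these neighbours and at 33.3% of all intervals. By the rule, neighbours that were FOSL2-alone regions listed FOSL2 and no other factor. They raise the FOSL2 share and lower the other shares by construction. Neighbours of ATF2-alone regions also listed VDR, RXR and KLF5 less often than all intervals, in 25.8%, 26.5% and 44.1%. For ATF7-alone regions the values were 24.0%, 25.6% and 41.4%, and KLF4-alone regions had the same direction. Next to KLF5-alone, VDR-alone and RXR-alone regions, VDR and RXR were not below all intervals. Every lone set had its own factor at the neighbour more often than all intervals, such as ATF2 with 42.7% and RXR with 46.3%. Neighbours of cJun-alone regions listed VDR in 45.8% of cases and cJun in 26.98%, against 34.0% and 17.8% of all intervals. Neighbours of JunB-alone regions listed VDR in 34.3%, RXR in 35.2% and KLF5 in 47.9%, against 34.0%, 34.8% and 49.3% of all intervals. They listed ATF2 in 27.3% (25.003 to 29.7), ATF7 in 16.9% (15.0 to 18.9) and FOSL2 in 13.9% (12.2 to 15.9), against 33.3%, 21.2% and 18.1% of all intervals.

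The chromosomes carrying most of each kind also differed. They were picked as the highest and lowest of 20 for each subunit, which by itself gives extremes. FOSL2-alone regions were most over-represented on chromosome 10, with 157 regions, 12.2% (10.5 to 14.2) of the kind, against 6.98% of all common intervals. The whole FOSL2 list was also heavy there, with 675 sites or 10.7% of it, and FOSL2 was alone at 23.3% (20.1 to 26.6) of those sites, against 20.4% over all chromosomes. ATF7-alone regions likewise had their highest ratio on chromosome 10, with 10.7% (9.06 to 12.5). FOSL2-alone regions were scarcest on chromosome 12, with 16 regions or 1.25% (0.715 to 2.02), against 3.67%. cJun-alone and JunB-alone regions were most over-represented on the X chromosome, with 12 regions or 3.27% (1.70 to 5.64) and 40 regions or 2.86% (2.05 to 3.88), against 1.93% of all intervals. The limits for cJun held the value of the common set. VDR-alone and RXR-alone regions also had their highest ratio on the X chromosome, with 3.42% and 3.43% of the kind. All single-factor regions together had 2.28% there. On chromosome 10, cJun had 5.72% (3.58 to 8.61) and JunB 5.87% (4.69 to 7.23) of their lone regions, and both limits held the 6.98% of all intervals.

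Many of these regions stood in dense windows. The 1 Mb window with most FOSL2-alone regions, chr10:117000001-118000000, held 47 of them among 288 intervals, 146 of which listed FOSL2. The window chr10:107000001-108000000 held 43, and the next one, chr5:17000001-18000000, held 12. Of the 54 stretches, 14 with 58 regions lay on chromosome 10. Among FOSL2-alone regions without another of their kind within 10 kb, the share on chromosome 10 was 5.85%. Removing regions by local density lowers the share of a dense chromosome by construction, and this value was chosen after the data were seen. The densest windows held 6 regions for JunB, at chr3:126000001-127000000, and 4 for cJun, at chr10:107000001-108000000.

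On the X chromosome few sites were listed, and a large part of them were alone. FOSL2 was alone at 43.8% (29.5 to 58.8) of its 48 sites there, JunB at 22.7% (16.8 to 29.6) of 176 and cJun at 12.2% (6.49 to 20.4) of 98, in each list the highest share of the 20 chromosomes. ATF2, ATF7, KLF4, VDR and RXR also had their highest share alone on the X chromosome, and KLF5 had it on chromosome 7.

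**Figure D5:**
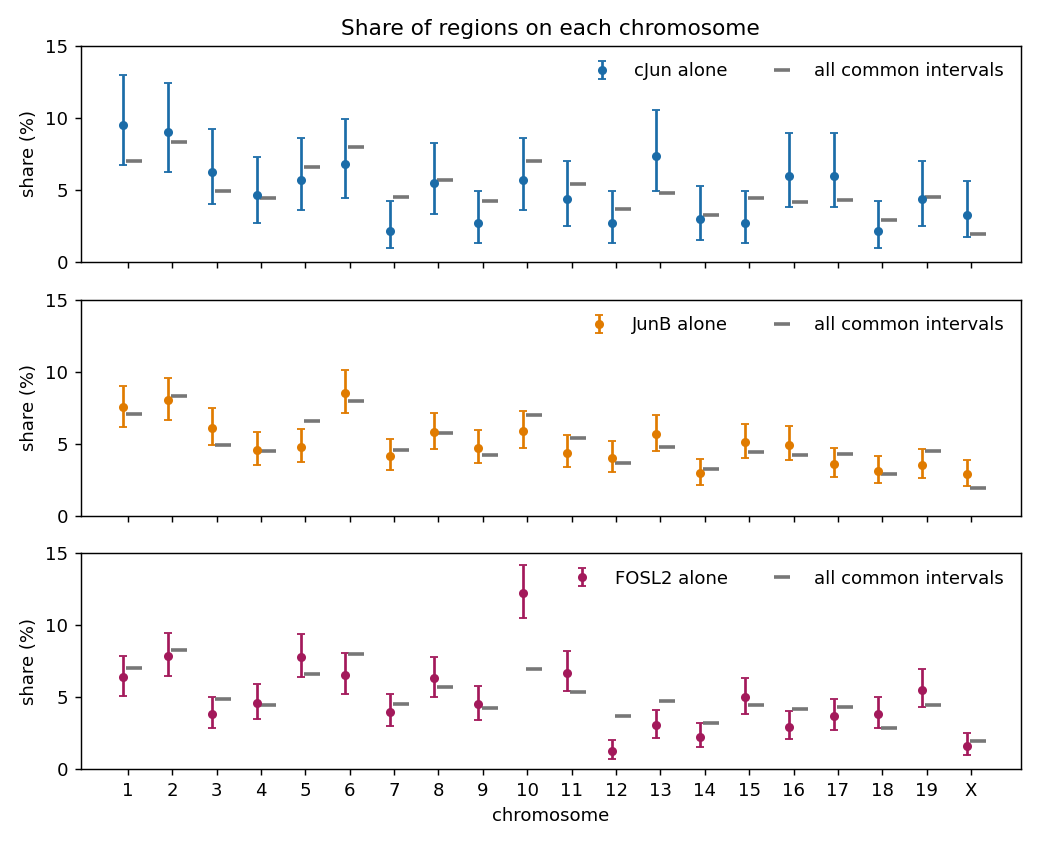
Share of regions (%) on each of 20 chromosomes for cJun, JunB and FOSL2 alone (points with exact 95% limits for counting error) beside the share of all common intervals (grey dashes). FOSL2 stands at 12.2% on chromosome 10, against 6.98% of all intervals, and at 1.25% on chromosome 12, against 3.67%.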

How the data were processed

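ChIP-seq peak lists of 9 factors in 3T3-L1 cells were used, with 1 library per factor. The authors deposited a position (chromosome, start and end) per interval and nothing else. The submitters' processing notes name FastQC, Bowtie, HOMER and the build mm9. Tool versions and roles, the peak threshold and the making of the common 400 bp intervals are not given there or in the labels. Intervals with identical coordinates were counted as shared. Of 34726 intervals, the 34724 on chromosomes 1 to 19 and X were kept. Positions are printed 1-based, and distances run between midpoints. A hotspot interval was listed for 5 or more factors, and nearness meant 10 kb. Named regions were, for each subunit, the first in coordinate order, the nearest to and farthest from a hotspot, the longest run of neighbouring intervals of the kind and the fullest 1 Mb window; the stretches and first rows were added after their values were seen. Alternatives changed the lists, the definition of a shared interval, the hotspot cut, the distance and the chromosomes. The calculations were tested on simulated lists. Members and lists were chosen with earlier results of these data known. No mm9 genome was used, so that no sequence, motif or gene was analysed. Python 3.11.15, numpy 2.4.6, scipy 1.17.1, pandas 2.3.3 and matplotlib 3.10.9 were used.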

Additional observations from a re-analysis of the deposited data

How the results depend on the processing

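Of 320 recomputed values, 197 stayed within the 95% limits of the reported value and 123 moved beyond them. Values are listed in the order cJun, JunB and FOSL2 where 3 are given. A distance of 5 kb in place of 10 kb gave 8.72, 7.22 and 6.79% near a hotspot, 15.5, 11.8 and 14.2% near another AP-1 subunit, 10.1, 8.08 and 9.75% near several subunits and 0, 2.00 and 22.5% near their own kind. A distance of 50 kb gave 40.6, 37.1 and 39.7%, 65.4, 53.6 and 57.3%, 45.8, 42.1 and 45.0% and 5.45, 14.9 and 38.0%. Hotspots of 4 or more factors gave 20.7, 16.7 and 16.6% within 10 kb and medians of 46.9, 57.7 and 49.1 kb, and hotspots of 6 or more gave 11.7, 8.66 and 8.58% and 131, 133 and 130.3 kb. These shifts follow from the wider or narrower definitions. When a lone region had to lack intervals of other factors within 1000 bp, the share alone was 5.33, 12.4 and 17.6%, and the share near another subunit 22.2, 16.0 and 17.5%. Under that rule JunB and FOSL2 had 9.36% and 8.24% near a hotspot and 11.3% and 12.1% near several subunits. FOSL2 also had a median of 97.1 kb, 24.1% near its own kind and 9.41% on chromosome 10. Without chromosome 10, FOSL2 had a median of 97.1 kb, 19.3% near another subunit, 13.4% near several and 21.3% near its own kind. Without regions near another of their kind, FOSL2 was alone at 15.0% of its sites, with a median of 97.0 kb, 19.04% near another subunit, 12.1% near several, 5.85% on chromosome 10 and 25.7% of neighbours listing another subunit.

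Leaving out the list of each other factor in turn adds lone regions and removes hotspots by construction. The share alone then ranged over 6.02 to 13.0% for cJun, 14.2 to 18.2% for JunB and 20.5 to 24.4% for FOSL2, and the share near a hotspot over 11.8 to 15.4% for cJun, 9.63 to 11.6% for JunB and 9.24 to 11.8% for FOSL2. Median distances ranged over 79.7 to 116 kb for cJun, 91.0 to 120.3 kb for JunB and 91.7 to 119.5 kb for FOSL2. The share near another subunit ranged over 11.2 to 29.7% for cJun, 10.6 to 20.7% for JunB and 12.2 to 24.0% for FOSL2, and that near several over 6.36 to 18.6% for cJun, 6.87 to 14.7% for JunB and 4.76 to 16.7% for FOSL2. Neighbours listed another subunit in 14.8 to 44.9% for cJun, 13.9 to 32.0% for JunB and 11.1 to 24.8% for FOSL2. Nearness to the own kind ranged over 3.36 to 4.91% for JunB and 25.4 to 29.5% for FOSL2, and the FOSL2 share on chromosome 10 over 11.1 to 15.2%. The share near the own kind was higher for FOSL2-alone than for JunB-alone and cJun-alone regions under each alternative run. No paired analysis was possible because each factor had 1 library. Motif and base content, planned with a narrower window as alternative, were not run, since no mm9 genome was used. With unknown depth and no replicate, differences between lists cannot be told apart from differences between antibodies or libraries.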
